A study of Mus musculus with 20 samples.

Results

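Islets of male B6.V-Lep ob/ob mice that had 2 days of the diet labelled CRD after 18 weeks of the diet labelled HFD were compared, across genes, with islets of mice kept on HFD for 18 weeks. The comparison rests on 10 of the 20 arrays of the series, 5 labelled as CRD for 2 days at 18 weeks and 5 labelled as HFD at 18 weeks, chosen by these labels alone. The other 10 arrays hold the same pair of diets at 39 weeks, 5 mice in each group. Every mouse of the series, on either diet, carried the ob/ob genotype, a loss of functional leptin, and no lean or chow-fed group was analysed here. The labels give the age and the weeks of HFD as the same number and do not spell out HFD or CRD. Islets were freed with collagenase injected through the bile duct, hand-picked to leave exocrine tissue behind, and frozen. RNA from each mouse was labelled with Cy3 and hybridised to a 1-colour Agilent array. In such bulk samples, fewer cells of a type and less RNA per cell cannot be told apart.

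Pancreatic islets are small endocrine organs in which beta cells make insulin, alpha cells glucagon, delta cells somatostatin and PP cells pancreatic polypeptide. The beta cell takes up glucose, oxidises it, and closes potassium channels as ATP forms, so that calcium enters and insulin granules fuse with the plasma membrane. It folds very large amounts of proinsulin in the endoplasmic reticulum (ER), and in obese mice it answers the demand for insulin with more secretion and with cell division. The defining markers of islets were bright here. Ins2 (insulin) stood at the highest value that any probe had, a log2 intensity of 17.94, on 17 of the 20 arrays, which leaves no room to read a change. Iapp (islet amyloid polypeptide) averaged 17.36 ± 0.05 on the CRD arrays and 17.06 ± 0.25 on the HFD arrays (SD, n = 5 each).

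Levels are log2 intensities of 18311 genes, each fold change is a log2 difference of CRD minus HFD with its standard error (SE), and p-values were adjusted over all genes tested with a threshold of 0.05. The arrays fell into 3 sets by the levels of 1315 chemosensory receptor genes, and no label records these sets. Between arrays of the same set these genes correlated at 0.925 to 0.978, and between sets at 0.847 to 0.916. Set A held CRD replicate 2 and HFD replicates 1, 3, 4 and 5, and set B held CRD replicates 1, 3, 4 and 5 and HFD replicate 2, so the sets lay almost along the diets. Fold changes and p-values therefore come from a limma fit of all 20 arrays that blocks on the array set, and the counts over all genes without the block stand beside the main ones. What the sets are was not tested.

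After 2 days of CRD, 1262 genes were higher (6.89% of those tested) and 1093 lower (5.97%) than on HFD. Without the block the counts were 3120 higher (17.0%) and 1445 lower (7.89%), so the share of higher genes among the calls was 53.59% with the block and 68.35% without it. In both fits 1171 genes were higher (6.4%) and 612 lower (3.34%). Changes of over 1 on the log2 scale numbered 492 higher and 348 lower, and changes of over 2 numbered 83 and 21. All 5 CRD arrays lay above all 5 HFD arrays for 1208 genes (6.6%) and below them for 549 (3.0%), 9.6% in all. The calls leaned on CRD replicate 2, the lone CRD array of 18 weeks in set A, and without it 575 genes were higher and 360 lower. The genes named hereafter as higher or lower kept their calls without each of the 10 arrays in turn, except where a value without an array is given. Counts of list members hereafter are to be read against the shares of all genes in the same fit.

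Of the 15 rising genes named for the size of their change, 10 serve cell division. Mki67, whose protein coats mitotic chromosomes and marks cycling cells, had log2 intensities of 10.32, 9.17, 9.12, 10.99 and 10.59 on CRD arrays 1 to 5, against 6.04, 6.70, 6.61, 5.91 and 5.60 on HFD arrays 1 to 5. The lowest CRD array thus lay well above the highest HFD array. The Mki67 fold change was 3.34 ± 0.38 (SE, adjusted p = 7.78e-06), with 3.14 within array set A and 3.55 within set B. Plk1, a kinase that drives mitotic entry and spindle assembly, read 8.59, 7.75, 7.30, 9.16 and 8.77 on CRD arrays and 2.22, 4.05, 3.08, 2.82 and 2.22 on HFD arrays. All HFD values of Plk1 were below the mean level of 4.83 under which genes were left out, so its fold change of 5.00 ± 0.40 (adjusted p = 1.17e-07) starts from a level near the floor of the arrays. The same holds for Birc5 (survivin, a member of the chromosomal passenger complex), the gene with the highest fold change among those named, 5.99 ± 0.64 (adjusted p = 3.6e-06). With an offset of 16 added to all intensities before the log, the Birc5 change was 3.73.

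Genes were then read in the order of the cell cycle. Of 15 tested genes of G1/S cyclins, CDKs and E2F factors, 4 rose and 1 fell, with 5 and 1 without the block. Ccne1 (cyclin E1) rose by 1.52 ± 0.23, and E2f2 and E2f1, transcription factors of S-phase genes, rose by 1.07 ± 0.23 and 0.94 ± 0.17. E2f1 read 9.75, 8.99, 9.56, 9.92 and 9.86 on CRD arrays and 7.95, 8.87, 8.14, 8.62 and 8.13 on HFD arrays, so CRD replicate 2 and HFD replicate 2 came close to each other without overlap. Ccnd2 (cyclin D2), a D-type cyclin that mouse beta cells use to divide, went the other way. It read 12.83, 12.19, 12.93, 12.99 and 13.06 on CRD arrays and 13.74, 14.20, 14.59, 13.74 and 13.08 on HFD arrays. Its fold change was -1.49 ± 0.24 (adjusted p = 0.000286), with HFD replicate 5 just above the highest CRD array.

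Replication genes moved together, 26 of 34 tested members higher and 0 lower (76.5%, against 6.89% of all genes), with a median fold change of 1.24 where all genes had 0.01. Without the block 28 were higher and 1 lower, and without CRD replicate 2 the lower count was 1. Cdc6 and Cdt1, which load the replicative helicase, rose by 3.62 ± 0.27 and 2.91 ± 0.22. Gins2, a subunit of the active helicase, rose by 3.50 ± 0.27, or by 2.28 with the offset. Mcm5, a subunit of the helicase ring, read 8.54, 8.59, 8.24, 9.18 and 8.95 on CRD arrays and 5.65, 6.08, 4.88, 4.71 and 4.55 on HFD arrays. Its groups stood far apart, with a fold change of 3.23 ± 0.26 (adjusted p = 1.26e-07). Another ring subunit, Mcm3, did not pass (-0.52 ± 0.27, adjusted p = 0.253). It read 13.05, 15.35, 12.52, 13.06 and 12.59 on CRD arrays and 14.99, 13.91, 14.80, 15.22 and 15.26 on HFD arrays. The set A arrays of both diets were thus the high ones, from 14.80 to 15.35, and without the block the same gene gave -1.53 (adjusted p = 0.0148). Mcm3 gave -1.05 (adjusted p = 0.0333) without CRD replicate 2 and -0.21 without HFD replicate 2.

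Deoxynucleotide supply had 6 of 17 members higher and 0 lower, a count that was 12 without the block and 10 without HFD replicate 1. The lower count there was 1 without HFD replicate 4 or 5. Rrm2 and Rrm1, the subunits of ribonucleotide reductase, rose by 2.16 ± 0.23 and 1.67 ± 0.24. Tyms (thymidylate synthase) rose by 1.93 ± 0.25, and Nme1, a nucleoside diphosphate kinase, by 1.12 ± 0.20. In the repair and checkpoint list 3 of 14 members rose and 1 fell, with 5 and 0 without the block and 0 falling without CRD replicate 2. Brca2 and Tonsl, both of homologous recombination repair, rose by 1.26 ± 0.25 and 1.24 ± 0.20. Of 15 CDK inhibitors and p53 targets, 0 rose and 2 fell with the block, and 5 rose and 1 fell without it, so that list had no set direction. Without HFD replicate 5 or CRD replicate 5 the lower count stayed at 2, and without each other array it was 1.

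The mitotic groups followed replication. Of 22 G2/M kinases and mitotic regulators, 14 rose and 0 fell, with a median of 1.35, and 14 rose and 1 fell without the block. Cdk1, the kinase that starts mitosis, read 8.93, 8.36, 7.74, 9.59 and 9.22 on CRD arrays and 3.86, 5.35, 4.54, 3.89 and 3.57 on HFD arrays. CRD replicate 3 was the lowest of its group and still stood well above HFD replicate 2. Ccna2 (cyclin A2) rose by 4.59 ± 0.46, Cdc20, an activator of the anaphase-promoting complex, by 4.25 ± 0.39, and Cdca3, which promotes mitotic entry, by 4.03 ± 0.32. Kinetochore and centromere genes had 10 of 20 higher and 0 lower (12 and 1 without the block), with Cenpa (the centromeric histone H3) at 4.47 ± 0.36, Cenpf at 3.99 ± 0.62 and Spc24 at 2.51 ± 0.31. Cenpf was at 2.64 without HFD replicate 2. Spindle and cytokinesis genes had 10 of 17 higher and 0 lower, with 11 and 0 without the block. Among them Tpx2, an activator of Aurora A, rose by 5.39 ± 0.64, Anln (anillin, of the contractile ring) by 3.26 ± 0.44, Stmn1 (stathmin, which destabilises microtubules) by 2.82 ± 0.35 and Prc1, which bundles the central spindle, by 2.30 ± 0.38. Condensation and topology genes had 10 of 15 higher and 0 lower (11 and 0 without the block), led by Top2a (topoisomerase II alpha) at 4.41 ± 0.47, Uhrf1, which guides maintenance DNA methylation, at 3.74 ± 0.46, and Hells, a chromatin remodeller, at 2.92 ± 0.34. H1f5, a linker histone, rose by 2.88 ± 0.31. Some of these members were dim after HFD, and with the offset of 16 the changes were 3.29 for Tpx2, 2.89 for Ccna2 and 2.35 for Cenpf. The filter on dim genes left out 7 of 29 measured G2/M genes, 13 of 33 kinetochore, 14 of 31 spindle and 6 of 21 condensation genes. It also left out 6 of 40 replication genes. The filter used the mean of all 20 arrays, so members such as Tpx2, at 2.13 on HFD arrays of 18 weeks, were tested only because their CRD arrays were high. The shares of members called rest partly on this. The medians of these mitotic lists within array set A were 1.47, 0.64, 1.42 and 1.34, and within set B 1.34, 0.72, 1.27 and 0.90, in the order the lists were given.

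CRD replicates 2 and 3 were the lowest CRD arrays for Mki67, Plk1, Top2a and Cdc20, and CRD replicate 4 was the highest for each of them. Top2a read 10.70, 9.49, 9.33, 11.44 and 11.06 on CRD arrays and 5.16, 6.69, 6.04, 4.07 and 4.64 on HFD arrays. Cdc20 read 8.71, 7.80, 7.5, 9.38 and 8.95 on CRD arrays and 3.85, 4.74, 3.86, 3.12 and 2.68 on HFD arrays. CRD replicates 3 and 4 both belong to set B, so part of this spread within the CRD group lay within a set. CRD replicate 2 is the only CRD array of 18 weeks in set A, so the part of the sets in its low values cannot be told.

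**Figure D1:**
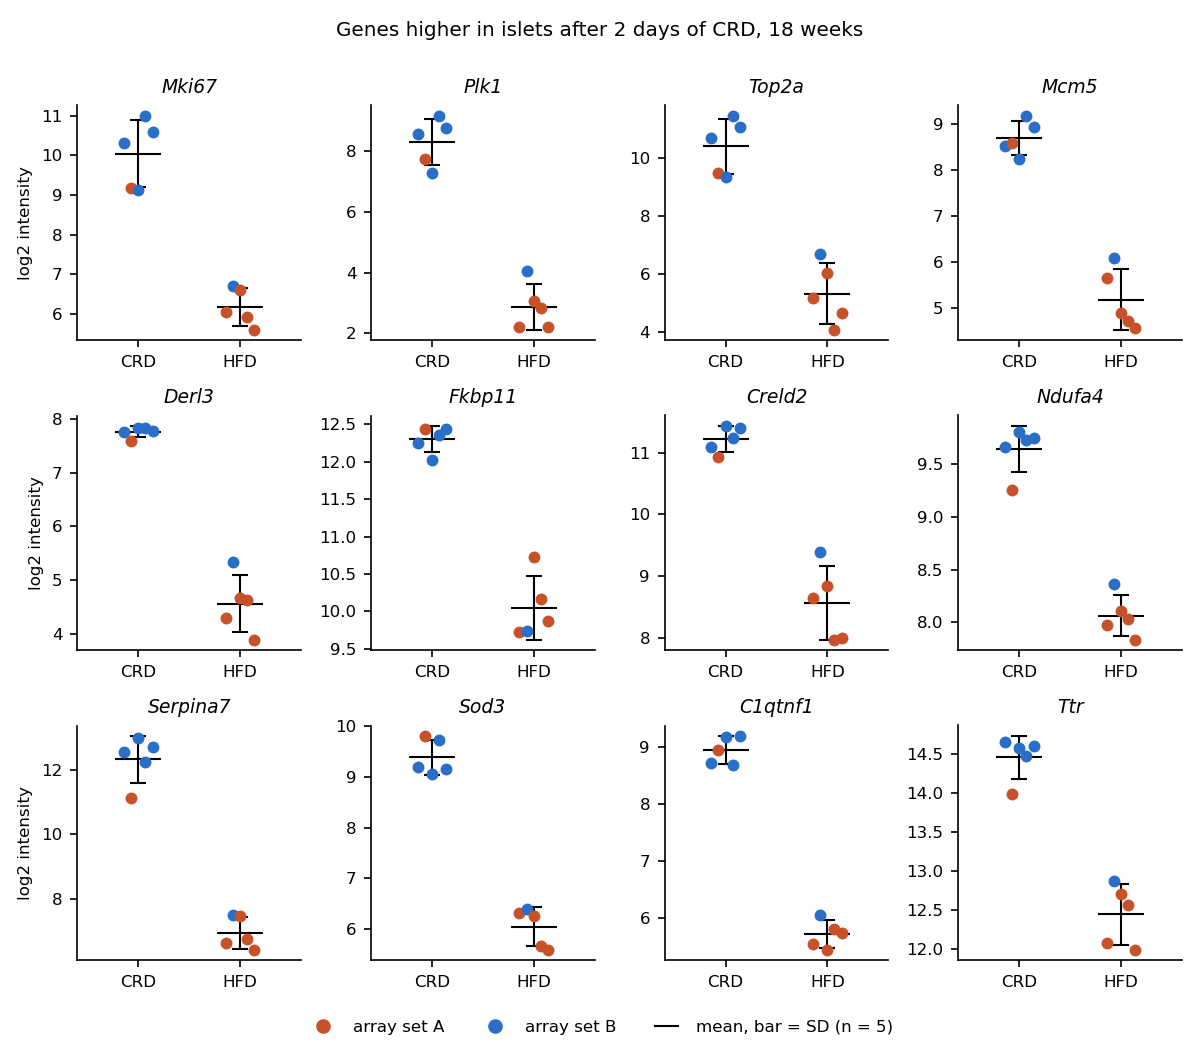
Log2 intensity of 12 genes that rose after CRD, with 1 point per array, CRD left of HFD, coloured by array set, and the mean with its SD (n = 5 per group). In all 12 panels the CRD points lie above the HFD points, and for Mki67, Plk1 and Top2a the CRD arrays spread over about 2 log2 units.

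Promoters of cell cycle genes carry known elements, so the 250 bases before the annotated start of named members were searched on both strands. The cell cycle genes homology region (CHR, letters TTTGAA), through which G2/M genes are repressed in resting cells, was present in 2190 of 14410 tested genes with a promoter in the RefSeq table of GRCm38.p6 (15.2%). It was present in 6 of 17 G2/M genes (35.3%), in 6 of 14 spindle genes (42.9%), in 7 of 12 condensation genes (58.3%) and in 3 of 17 kinetochore genes (17.6%). The CCAAT box (letters CCAAT), which often lies beside a CHR, was found in 38.8% of the tested genes and in 15 of the 17 G2/M genes (88.2%). An E2F site (letters TTTGGCGC, TTTCCCGC, TTTGGCGG or TTTCGCGC) was found in 3.2% of the tested genes and in 10 of 26 replication genes (38.5%), but in 1 of 16 deoxynucleotide genes (6.25%). Of members past the threshold in both fits, 4 of 11 G2/M genes (36.4%) and 2 of 7 spindle genes (28.6%) held the CHR. So did 6 of 9 condensation genes (66.7%) and 2 of 8 kinetochore genes (25%). The CCAAT box was in 11 of 11 such G2/M genes. The E2F site was in 6 of 18 such replication genes (33.3%) and in 1 of 6 such deoxynucleotide genes (16.7%). These shares are descriptions, and a match is not a shown site. The promoters of Top2a (chr11:99024190-99024439, minus strand), Cdc20 (chr4:118437344-118437593, minus strand) and Cdk1 (chr10:69352913-69353162, minus strand) are shown 5′ to 3′ because these genes are among those with the highest fold changes and hold the CHR, in capitals on either strand. The promoter of Mcm5 (chr8:75109259-75109508, plus strand) is shown for its E2F site, where 2 matches on opposite strands overlap to form the capitals.
Top2a: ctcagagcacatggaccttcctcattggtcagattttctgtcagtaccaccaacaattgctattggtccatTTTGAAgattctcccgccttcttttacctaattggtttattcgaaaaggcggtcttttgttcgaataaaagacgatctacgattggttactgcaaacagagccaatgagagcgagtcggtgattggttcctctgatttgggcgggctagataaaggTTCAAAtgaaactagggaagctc
Cdc20: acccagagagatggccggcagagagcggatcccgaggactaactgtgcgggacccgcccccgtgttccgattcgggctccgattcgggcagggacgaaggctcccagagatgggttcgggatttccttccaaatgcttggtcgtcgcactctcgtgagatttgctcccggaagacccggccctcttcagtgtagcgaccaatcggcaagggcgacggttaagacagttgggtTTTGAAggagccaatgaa
Cdk1: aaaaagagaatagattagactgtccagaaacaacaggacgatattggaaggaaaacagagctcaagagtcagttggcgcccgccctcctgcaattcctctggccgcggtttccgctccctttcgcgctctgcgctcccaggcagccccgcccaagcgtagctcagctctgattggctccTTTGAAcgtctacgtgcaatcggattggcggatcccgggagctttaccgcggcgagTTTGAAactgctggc
Mcm5: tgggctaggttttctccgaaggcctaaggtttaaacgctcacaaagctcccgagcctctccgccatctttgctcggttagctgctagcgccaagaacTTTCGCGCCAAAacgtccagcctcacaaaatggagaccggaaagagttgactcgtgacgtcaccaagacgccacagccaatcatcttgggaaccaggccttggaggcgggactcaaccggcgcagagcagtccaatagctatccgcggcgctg
The CHR of Cdc20 began 18 bases before the start, and the nearer of the 2 in Top2a and in Cdk1 began 23 and 15 bases before it.

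Genes of the secretory pathway formed the other large rising group. Of 28 ER chaperones and oxidative folding enzymes, 14 rose and 1 fell, with a median fold change of 0.86. Without the block 24 rose, and without CRD replicate 2 the count was 8. The lower call was lost without HFD replicate 2 or 3 or CRD replicate 2, 3 or 4. Fkbp11, a peptidyl-prolyl isomerase of secretory cells, read 12.25, 12.44, 12.03, 12.35 and 12.44 on CRD arrays and 9.72, 9.73, 10.73, 10.17 and 9.87 on HFD arrays. HFD replicate 3 was the highest of its group and lay below every CRD array, and the fold change was 2.39 ± 0.20 (adjusted p = 1.82e-07). Creld2, an ER protein induced by misfolding, rose by 2.26 ± 0.25, Sdf2l1, a chaperone partner, by 2.14 ± 0.21, and Ppib (cyclophilin B) by 1.70 ± 0.19.

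The later steps of the pathway shared the direction. ER-associated degradation had 8 of 20 members higher and 0 lower, 15 without the block, 5 without HFD replicate 2 and 4 without CRD replicate 2. Derl3, a derlin that helps to move misfolded proteins out of the ER, read 7.75, 7.58, 7.83, 7.83 and 7.78 on CRD arrays and 4.30, 5.34, 4.67, 4.63 and 3.90 on HFD arrays. The CRD arrays lay close together, well above every HFD array, and the fold change was 2.89 ± 0.28 (adjusted p = 9.22e-07). Edem2, which trims mannose from misfolded glycoproteins, rose by 1.36 ± 0.21 and Derl1 by 0.94 ± 0.18. Syvn1, the Hrd1 ubiquitin ligase, rose by 0.95 ± 0.24 (adjusted p = 0.0105), a call lost without HFD replicate 2 (adjusted p = 0.0582) or CRD replicate 2 (adjusted p = 0.0858), and the Syvn1 change was 1.47 without the block.

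The translocon, signal peptidase and N-glycosylation list had 16 of 38 members higher and 1 lower, 29 higher without the block and 7 without CRD replicate 2. The lower call was lost without HFD replicate 4 or CRD replicate 1, 2 or 3. Alg5, a glucosyltransferase of the dolichol pathway, rose by 2.02 ± 0.19. Dad1, a subunit of oligosaccharyltransferase, read 14.34, 14.10, 14.41, 14.42 and 14.43 on CRD arrays and 12.44, 13.00, 12.71, 12.39 and 11.76 on HFD arrays. These are levels near the top of the table, with no overlap, and the fold change was 1.61 ± 0.18 (adjusted p = 6.69e-06). Mogs (glucosidase I) rose by 1.58 ± 0.34 and Sec11c, of signal peptidase, by 1.49 ± 0.28. Between ER and Golgi 9 of 37 members rose and 0 fell, with 21 without the block, 19 without HFD replicate 1 and 5 without CRD replicate 2. Kdelr3, a receptor that returns ER proteins from the Golgi, rose by 2.65 ± 0.22, the cargo receptor Tmed3 by 1.27 ± 0.22 and Ergic1, which cycles between the compartments, by 1.09 ± 0.22. The sensors and transducers of the unfolded protein response were near the background, with 1 of 17 higher and 1 lower (2 and 2 without the block), against 6.89% and 5.97% of all genes. The higher call was lost without CRD replicate 2, and without HFD replicate 1 it was 2 genes. The lower call was lost without each array except HFD replicates 1 and 2. In the list of the integrated stress response and serine-glycine synthesis 2 of 19 were higher and 3 lower, with 3 and 1 without the block and 0 and 0 without CRD replicate 2. Without HFD replicate 2 the lower count there was 1.

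The ER stress response element (ERSE, letters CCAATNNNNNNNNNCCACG), which ATF6 and NF-Y bind, was searched in the same promoters. It was found in 23 of 14410 tested genes (0.16%), in 8 of 24 chaperone and folding genes (33.3%) and in 2 of 16 degradation genes (12.5%), so most holders of the motif were outside these lists. Of members past the threshold in both fits, 3 of 14 chaperone and folding genes (21.4%) and 2 of 6 degradation genes (33.3%) held it. The promoters of Derl3 (chr10:75893148-75893397, plus strand) and Creld2 (chr15:88819396-88819645, plus strand), from RefSeq GRCm38.p6, are shown as the holders in these lists with the highest fold changes, with the ERSE in capitals, in both on the opposite strand.
Derl3: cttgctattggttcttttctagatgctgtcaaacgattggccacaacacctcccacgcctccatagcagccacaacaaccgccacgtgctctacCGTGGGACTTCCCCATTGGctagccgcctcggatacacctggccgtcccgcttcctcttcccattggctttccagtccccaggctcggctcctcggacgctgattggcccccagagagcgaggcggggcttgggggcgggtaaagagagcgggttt
Creld2: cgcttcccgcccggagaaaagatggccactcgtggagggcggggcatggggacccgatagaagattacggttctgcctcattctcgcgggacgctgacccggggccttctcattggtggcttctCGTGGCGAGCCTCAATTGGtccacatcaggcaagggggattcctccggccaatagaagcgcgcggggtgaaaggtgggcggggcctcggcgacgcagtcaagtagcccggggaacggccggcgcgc
The match began 156 bases before the start in Derl3 and 126 bases before it in Creld2.

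Acinar cells of the exocrine pancreas also carry a large secretory pathway, so their markers are given beside these lists. The summed level of 24 acinar markers, on the log2 scale, was 13.27, 13.93, 16.12, 15.14 and 13.93 on CRD arrays 1 to 5, against 15.87, 12.25, 11.38, 11.95 and 13.41 on HFD arrays. The groups overlapped, with HFD replicate 1 the second highest of the 10 arrays. Of the 24 markers, 1 rose and 0 fell, with a median fold change of 2.06. Without HFD replicate 1 the higher count was 17, without the block 14, and without HFD replicate 2 or CRD replicate 2 it was 0. The member that passed was Bhlha15 (MIST1), a transcription factor of secretory cells, which rose by 0.77 ± 0.21 (adjusted p = 0.0176) and which beta cells can also express. No marker of the list was at 0, since the table has no zero values. The levels of 3 secretory genes are set beside the acinar sum. HFD replicate 1, with a sum of 15.87, had Derl3 at 4.30, Fkbp11 at 9.72 and Ppib at 8.98. CRD replicate 1, with a lower sum of 13.27, had Derl3 at 7.75, Fkbp11 at 12.25 and Ppib at 11.29. HFD replicate 1 lies in array set A and CRD replicate 1 in set B. Over all arrays of 18 weeks the median acinar sum was 13.93 on CRD arrays and 12.25 on HFD arrays. The part of acinar RNA in the rise of the secretory lists was not tested. In the Reg family, which acinar and stressed islet cells make, 1 of 7 members rose, and 3 without the block. This was Reg3d at 2.59 ± 0.71 (adjusted p = 0.0187), which was lost without HFD replicate 2 (1.6, adjusted p = 0.263), in the 10 arrays of 18 weeks alone, with the replicate number as a block and with the offset of 16 (1.39), and 2 members passed without HFD replicate 1.

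**Figure D2:**
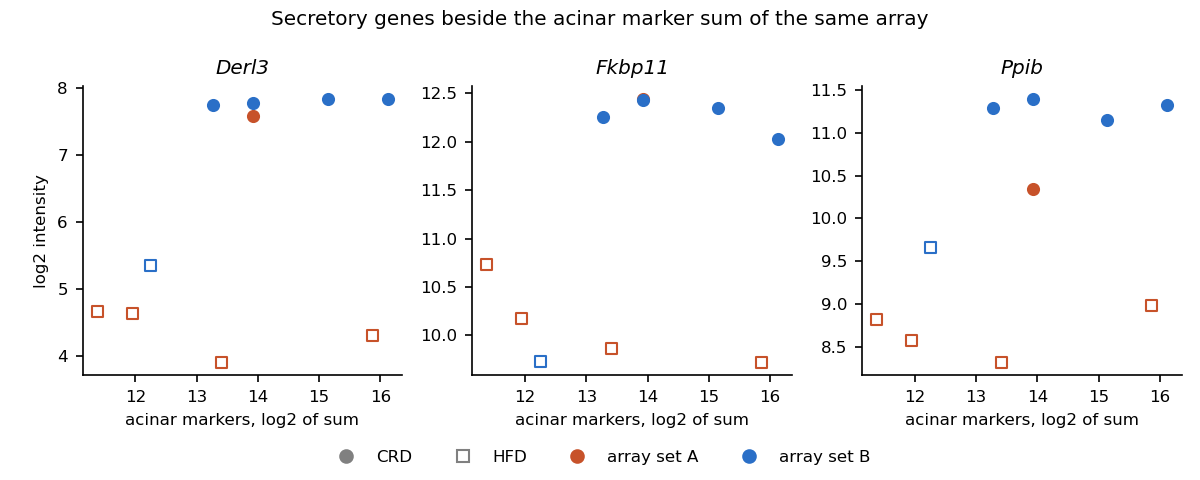
Log2 intensity of Derl3, Fkbp11 and Ppib on each array (vertical axis) against the log2 of the summed intensity of 24 acinar markers on the same array (horizontal axis), with CRD as filled circles and HFD as open squares, coloured by array set. The acinar sum spans 13.27 to 16.12 on CRD arrays and 11.38 to 15.87 on HFD arrays.

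Among mitochondrial and translation genes, the counts moved with the arrays left out. Of all genes, 6.89% were higher and 5.97% lower, or 17.0% and 7.89% without the block. Without CRD replicate 2, 575 of the 18311 genes were higher and 360 lower. Of 48 genes in the list of respiratory complexes I to III and V, 17 rose and 0 fell (35.4%), with a median of 0.45. The count was 34 without the block, 4 without CRD replicate 2, and 11 without CRD replicate 3 or 5. Ndufa4 was in this list although its protein is a subunit of cytochrome oxidase. It read 9.67, 9.26, 9.81, 9.73 and 9.74 on CRD arrays and 7.98, 8.36, 8.10, 8.03 and 7.84 on HFD arrays. The groups were apart on all arrays, and the fold change was 1.33 ± 0.15 (adjusted p = 7.89e-06). Atp5g1, which encodes the c subunit of ATP synthase, rose by 1.26 ± 0.18 and Ndufc2, of complex I, by 1.05 ± 0.17 (1.59 without the block). Among 22 genes of cytochrome oxidase and cytochrome c, 3 rose and 3 fell, with 10 higher and 1 lower without the block and 7 higher without HFD replicate 1. Cycs (cytochrome c) rose by 1.53 ± 0.30 and Cox7b by 0.96 ± 0.17. Cox6a2, a subunit isoform typical of muscle, fell. It read 8.96, 9.35, 7.13, 8.84 and 9.02 on CRD arrays and 11.04, 11.54, 12.20, 11.77 and 11.20 on HFD arrays. CRD replicate 3 was the lowest, and the fold change was -2.81 ± 0.40 (adjusted p = 9.32e-05).

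Mitochondrial ribosomal proteins had 13 of 38 members higher and 0 lower, 27 without the block and 2 without CRD replicate 2. Mrpl17, of the large subunit, rose by 1.14 ± 0.17 and Mrps7, of the small subunit, by 0.86 ± 0.19. Aminoacyl-tRNA synthetases had 5 of 18 higher and 0 lower, 9 without the block and 1 without CRD replicate 2. Hars, which charges histidine tRNA, rose by 1.18 ± 0.20. Proteasome subunits had 7 of 31 higher and 0 lower, 20 without the block, 4 without HFD replicate 2 and 0 without CRD replicate 2. Nucleolar genes of ribosome assembly had 4 of 37 higher (10.8%, against 6.89% of all genes) and 1 lower (2.7%, against 5.97%). The higher count was 15 without the block, 10 without HFD replicate 1 and 0 without CRD replicate 2. The lower count there was 0 or 2 without 6 of the arrays. Cytosolic ribosomal proteins had 1 of 39 higher (2.56%) and 0 lower, below the shares of all genes. Their higher count was 11 without the block, where 17.0% of all genes were higher, and 0 without CRD replicate 2. Of 22 cytosolic heat shock chaperones 0 were higher or lower, and 9 were higher without the block. Without HFD replicate 1 they had 3 higher and 1 lower, and without CRD replicate 4 1 higher.

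**Figure D3:**
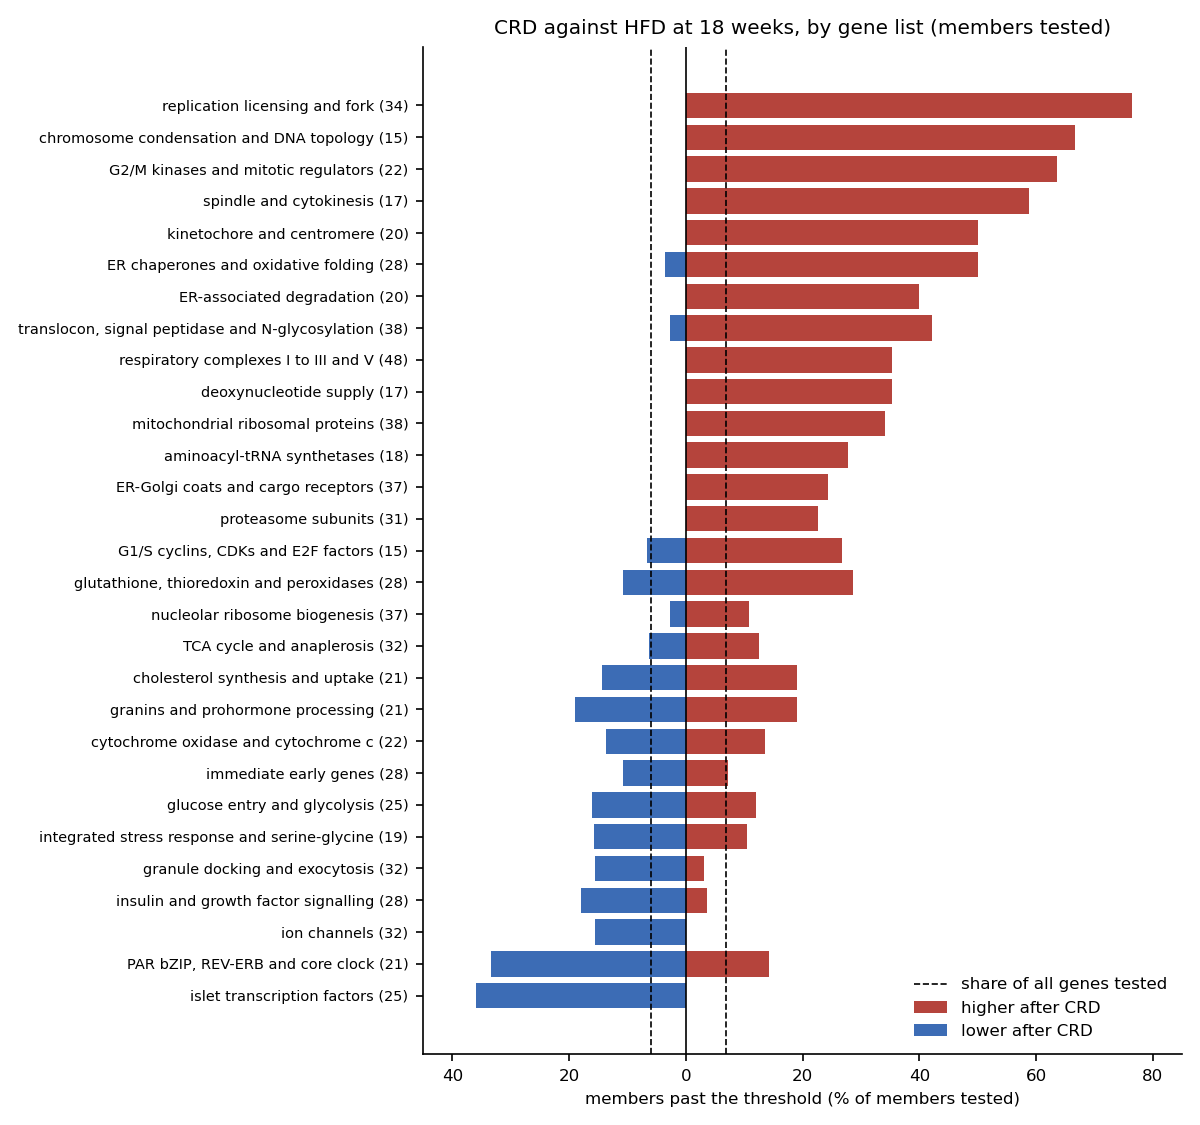
Share of tested members (percent, horizontal axis) that were higher after CRD (bars to the right) or lower (bars to the left) for each pathway list with 5 or more called members, with the number tested in brackets and dashed lines at 6.89% and 5.97%, the shares of all genes. The replication list reaches 76.5% higher, and islet transcription factors and clock genes reach 36.0% and 33.3% lower.

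Glucose entry and metabolism held the named gene with the lowest fold change. Slc2a2 (GLUT2), the glucose transporter of mouse beta cells, read 9.77, 8.47, 8.85, 10.01 and 10.33 on CRD arrays and 13.00, 13.54, 12.58, 11.45 and 10.93 on HFD arrays. HFD replicates 4 and 5 were the low ones of their group and still lay above every CRD array. The fold change was -3.65 ± 0.39 (adjusted p = 3.76e-06), with -3.52 within set A and -3.80 within set B, and -2.81 (adjusted p = 0.00036) without the block. G6pc2, a glucose-6-phosphatase of beta cells that opposes glucokinase, read 10.85, 9.76, 10.63, 10.79 and 11.01 on CRD arrays and 10.56, 11.83, 12.42, 12.03 and 11.20 on HFD arrays. HFD replicate 1 lay among the CRD values, and the fold change was -1.56 ± 0.32 (adjusted p = 0.00237), or -1.0 (adjusted p = 0.0384) without the block. Gapdh, a glycolytic enzyme, rose by 0.89 ± 0.18. In the whole list of glucose entry and glycolysis, 3 of 25 rose and 4 fell, with 6 and 5 without the block. Without HFD replicate 1 the higher count was 5, and without HFD replicate 2 the lower count was 2.

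The ChREBP axis, by which glucose controls transcription, was split. Mlxipl, which encodes ChREBP, read 10.30, 9.36, 10.40, 10.27 and 10.41 on CRD arrays and 11.60, 11.99, 11.54, 11.23 and 10.47 on HFD arrays. CRD replicate 2 was the lowest and HFD replicate 5 came close to the CRD arrays, with a fold change of -1.71 ± 0.24 (adjusted p = 9.04e-05). Arrdc4, an arrestin-like gene that ChREBP and MondoA induce, rose by 1.64 ± 0.26. Its relative Txnip, an inhibitor of thioredoxin, read 15.49, 13.48, 15.06, 15.13 and 15.40 on CRD arrays and 12.87, 13.78, 12.70, 12.20 and 11.64 on HFD arrays. CRD replicate 2 lay below HFD replicate 2, so the groups overlapped, and each of these was the lone array of 18 weeks of its diet in its set. The Txnip fold change of 1.23 ± 0.39 (adjusted p = 0.0411) was not past the threshold without any of 8 arrays, HFD replicates 1 and 3 being the exceptions, with adjusted p-values of 0.0517 to 0.216, and without the block it was 2.27. Of the 23 tested members of this list, 3 rose and 1 fell, with 7 higher without the block. The higher count was 5 without HFD replicate 1 and 1 without HFD replicate 2 or 4 or CRD replicate 2, 3 or 5. The lower count was 2 without HFD replicate 4 and 4 without HFD replicate 5.

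Lipid genes gave single changes rather than a group. Hadh, a mitochondrial dehydrogenase of short fatty acids that restrains insulin secretion, fell by 1.79 ± 0.30 on the log2 scale (adjusted p = 0.000526), with overlapping groups, and the change was -1.10 without the block. Stard4, which carries cholesterol between membranes, changed by -1.52 ± 0.29, and Fabp5, a fatty acid binding protein, rose by 1.49 ± 0.28. Fatty acid oxidation and PPAR targets had 1 of 26 higher and 1 lower, with 4 and 3 without the block, 2 higher without HFD replicate 1 and 2 lower without HFD replicate 5. In the glutathione, thioredoxin and peroxidase list 8 of 28 rose and 3 fell, with 13 higher without the block, 5 without HFD replicate 4 or CRD replicate 5, and 3 higher and 1 lower without CRD replicate 2. Gpx3, a secreted glutathione peroxidase, rose by 1.29 ± 0.22 and Txn1 (thioredoxin) by 1.08 ± 0.18, while Gstm1, a glutathione transferase, fell (-1.73 ± 0.28).

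Genes of beta-cell identity and secretion were lower more often than higher. Of 25 islet transcription factors and maturity genes, 0 rose and 9 fell (36.0%, against 5.97% of all genes), with a median of -0.44. Without the block 1 rose and 12 fell, and without CRD replicate 2 the lower count was 1. Isl1 changed by -1.13 ± 0.23, Neurod1 by -1.06 ± 0.24 and Ucn3, a peptide of mature beta cells, by -1.09 ± 0.25. Isl1 and Neurod1 lost their calls without CRD replicate 2 (adjusted p = 0.0646 and 0.105), and Ucn3 without HFD replicate 2 (adjusted p = 0.0928). Pdx1, a master regulator of the beta cell, did not pass (-0.73 ± 0.28, adjusted p = 0.0934), and did so without HFD replicate 1 (adjusted p = 0.0149). Mafa, an activator of the insulin gene, gave -0.28 ± 0.18 (adjusted p = 0.374). Without the block Pdx1 was at -0.97 (adjusted p = 0.00978) and Mafa at -0.56 (adjusted p = 0.0349). Without CRD replicate 2, Pdx1 was at -0.44 and Mafa at -0.19.

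Few genes changed among the receptors of the stimulus for secretion, and the called members of the channel list all fell. Glp1r, the receptor of the incretin GLP-1, read 7.22, 7.11, 7.17, 7.27 and 7.38 on CRD arrays and 8.65, 8.92, 9.16, 9.36 and 9.15 on HFD arrays. The CRD arrays lay close together and all below the HFD arrays, with a fold change of -1.83 ± 0.16 (adjusted p = 4.12e-07). In the receptor list 1 of 32 rose (3.12%) and 2 fell (6.25%), near or below the 6.89% and 5.97% of all genes. Without the block 2 rose and 3 fell. The lower count was 4 without HFD replicate 5 and 1 without CRD replicate 2, and the higher count was 2 without HFD replicate 1 and 0 without HFD replicate 2. Of 32 ion channels and pumps, 0 rose and 5 fell (15.6%, against 5.97% of all genes). Without the block 8 fell, where 7.89% of all genes were lower. Kcnj11 (Kir6.2), the pore of the ATP-sensitive potassium channel, changed by -1.02 ± 0.20. Cacna2d1, an auxiliary calcium channel subunit, changed by -1.21 ± 0.19, and Atp2a2 (SERCA2), the calcium pump of the ER, by -1.33 ± 0.25. Without the block Kcnj11 was at -0.65 and Atp2a2 at -0.86, both past the threshold.

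The granins and processing genes split between both directions, whereas docking and exocytosis genes fell more often than they rose. Of 21 granins and processing genes, 4 rose and 4 fell (19.0% each, against 6.89% and 5.97% of all genes), with 1 higher without CRD replicate 2. Slc30a8 (ZnT8), which loads zinc into insulin granules, read 9.85, 9.0, 9.64, 9.72 and 9.91 on CRD arrays and 10.96, 11.80, 11.76, 11.67 and 10.96 on HFD arrays. The groups did not overlap, with a fold change of -2.25 ± 0.20 (adjusted p = 5.81e-07). Resp18, a granule protein of endocrine cells, changed by -1.89 ± 0.25, Sytl4 (granuphilin), which docks granules, by -1.49 ± 0.24, and Pcsk1n (proSAAS), an inhibitor of a prohormone convertase, by -1.10 ± 0.18. Ptprn (IA-2), a granule membrane protein, rose. It read 13.32, 12.61, 13.13, 13.05 and 13.33 on CRD arrays and 11.59, 12.07, 11.93, 11.61 and 12.04 on HFD arrays. The fold change was 1.02 ± 0.15 (adjusted p = 0.000122). In docking and exocytosis 1 of 32 rose (3.12%) and 5 fell (15.6%), with 3 higher and 7 lower without the block. Without CRD replicate 2 the counts were 0 higher and 1 lower, and the higher count was 0 to 3 without other arrays. Rab37, a small GTPase of secretory granules, was the member with the lowest fold change, -1.81 ± 0.29, with CRD replicate 5 just above HFD replicate 5. Averaged over its probes, Rab37 gave -1.01 and did not pass.

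**Figure D4:**
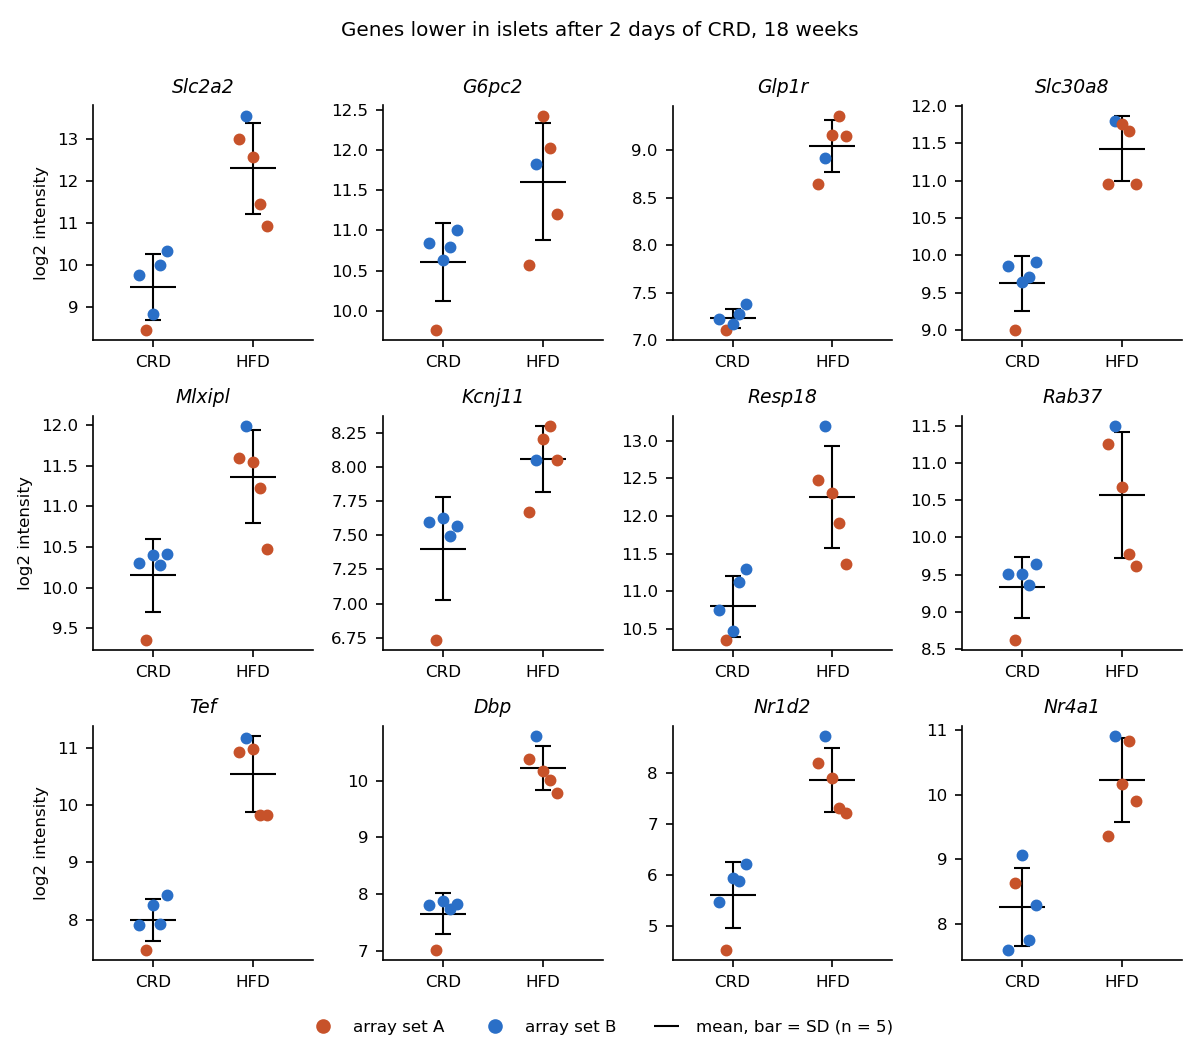
Log2 intensity of 12 genes that fell after CRD, with 1 point per array, CRD left of HFD, coloured by array set, and the mean with its SD (n = 5 per group). CRD replicate 2 is the lowest CRD array in 11 of the 12 panels, Nr4a1 being the exception, and the groups overlap for G6pc2 and Rab37.

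Clock-controlled genes formed a compact falling group. Circadian output in many tissues runs through the PAR bZIP factors DBP, TEF and HLF, which activate D-box genes, and through the REV-ERB receptors, which repress Arntl and Nfil3. Tef read 7.90, 7.48, 8.26, 7.92 and 8.44 on CRD arrays and 10.93, 11.17, 10.98, 9.84 and 9.82 on HFD arrays. Dbp read 7.82, 7.02, 7.87, 7.74 and 7.83 on CRD arrays and 10.38, 10.78, 10.16, 10.02 and 9.78 on HFD arrays. Both were lower on every CRD array, with fold changes of -3.0 ± 0.29 for Tef and -2.97 ± 0.17 for Dbp. The Dbp change (adjusted p = 1.29e-09) was -3.06 within array set A and -2.97 within set B. Hlf fell by 2.85 ± 0.30 and Nr1d2 (REV-ERB beta) fell by 2.89 ± 0.22. Arntl (BMAL1) and Nfil3, a repressor at D-boxes, were on the opposite side. Arntl read 7.44, 6.60, 7.05, 7.28 and 7.36 on CRD arrays and 5.79, 6.09, 4.18, 3.09 and 3.29 on HFD arrays. Its fold change of 1.96 ± 0.44 (adjusted p = 0.00479) and that of Nfil3, 1.72 ± 0.39 (adjusted p = 0.00506), lost their calls without CRD replicate 2 (adjusted p = 0.097 and 0.113). In the whole list 3 of 21 rose and 7 fell (33.3% lower, against 5.97%), and 0 rose without CRD replicate 2. The E-box (letters CACGTG), which BMAL1 and CLOCK bind, was found in 5 of 17 promoters of this list and in 8.51% of the tested genes. Of the members past the threshold in both fits, 2 of 9 held it (22.2%). The sources used here do not give the hour of islet collection, and its part in these values was not tested.

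Several secreted proteins and carriers were among the genes with the highest fold changes. Serpina7, which encodes thyroxine-binding globulin, read 12.55, 11.13, 12.99, 12.23 and 12.70 on CRD arrays and 6.65, 7.49, 7.47, 6.74 and 6.42 on HFD arrays. Every CRD array was far above every HFD array, with a fold change of 4.79 ± 0.27 (adjusted p = 1.29e-09). Ttr (transthyretin), another carrier of thyroxine and a marker of alpha cells that beta cells also make, rose by 1.67 ± 0.19. Sod3, the extracellular superoxide dismutase, read 9.21, 9.81, 9.06, 9.73 and 9.16 on CRD arrays and 6.31, 6.38, 6.26, 5.66 and 5.59 on HFD arrays. C1qtnf1, a secreted protein of the C1q and TNF family, read 8.72, 8.95, 9.18, 8.68 and 9.19 on CRD arrays and 5.55, 6.07, 5.45, 5.82 and 5.75 on HFD arrays. Neither gene showed overlap, and the fold changes were 3.33 ± 0.22 (adjusted p = 1.58e-08) and 3.11 ± 0.17 (adjusted p = 1.29e-09). Gsto2, a glutathione transferase of the omega class, rose by 3.08 ± 0.21 and Ttyh1, of a family of chloride channels, by 2.96 ± 0.41.

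The falling genes outside the lists above were mixed in function. Pcp4, a regulator of calmodulin, read 6.87, 6.87, 7.11, 6.96 and 6.85 on CRD arrays and 9.59, 9.69, 9.19, 8.30 and 8.00 on HFD arrays. The CRD arrays lay together and HFD replicates 4 and 5 were the low ones of their group, with a fold change of -2.32 ± 0.32 (adjusted p = 7.1e-05). Camk2n1, an inhibitor of CaM kinase II, changed by -2.27 ± 0.28. Sult1d1, a sulfotransferase, changed by -2.27 ± 0.33, Gstm3, a glutathione transferase, by -2.16 ± 0.26, and Zdhhc2, a palmitoyltransferase, by -2.02 ± 0.20. Adam32, of a family of membrane metalloproteases, read 7.49, 7.02, 7.40, 7.43 and 7.57 on CRD arrays and 9.30, 9.72, 9.41, 9.24 and 9.04 on HFD arrays. Its change of -2.20 ± 0.15 (adjusted p = 1.58e-08) had the smallest SE among the 15 falling genes named for their size. Averaged over the probes of the gene, Adam32 gave -0.65 and did not pass. Pcp4 belongs to the list of calmodulin and calcineurin regulators, in which 0 of 20 rose and 4 fell, with 2 lower without the block and 1 without CRD replicate 2. Msln (mesothelin, a surface protein of mesothelial cells) gave -2.10 ± 0.39, Slc16a9, of the monocarboxylate transporter family, -2.08 ± 0.27, and Mettl27 -2.05 ± 0.26.

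Genes that respond within hours to signals, and markers of altered beta cells, changed singly. Nr4a1, an immediate early nuclear receptor, read 7.60, 8.63, 9.06, 7.75 and 8.28 on CRD arrays and 9.36, 10.91, 10.16, 10.84 and 9.91 on HFD arrays. It fell by 2.19 ± 0.39 on the log2 scale (adjusted p = 0.000832). The immediate early list had 2 of 28 higher (7.14%, near the 6.89% of all genes) and 3 lower (10.7%, against 5.97%). Its counts were 3 and 2 without the block, 5 lower without HFD replicate 5, and 0 higher and 1 lower without CRD replicate 2. Nfkbia, the inhibitor of NF-kB and one of its targets, changed by -1.27 ± 0.22, and Trib1, a pseudokinase, by -1.37 ± 0.24 (-0.90 without the block). Aldh1a3, an enzyme of retinoic acid synthesis raised in failing beta cells of diabetic mice, read 10.12, 8.93, 9.81, 9.24 and 9.80 on CRD arrays and 8.17, 8.34, 7.83, 7.18 and 7.43 on HFD arrays. It rose by 1.58 ± 0.28 (adjusted p = 0.00069) without overlap. Maob (monoamine oxidase B) changed by -1.70 ± 0.26, and in the list of dedifferentiation and disallowed genes that holds both 3 of 16 rose and 1 fell, with 5 and 2 without the block. Among 34 genes of the primary cilium 2 rose and 2 fell, near the background, and Cep290, of the ciliary transition zone, changed by -1.11 ± 0.20. Without CRD replicate 2 that list had 0 higher and 1 lower, and without HFD replicate 5 it had 4 lower, while the higher count was 0 or 1 without 6 other arrays.

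Markers of the other cell types of the islet gave few calls, from short lists. Gcg (glucagon) averaged 14.40 ± 0.57 on CRD arrays and 14.81 ± 0.45 on HFD arrays (SD, n = 5 each). Its fold change was -0.93 ± 0.20 (adjusted p = 0.00353) with the block, -0.41 (adjusted p = 0.248) without it, and -0.73 (adjusted p = 0.0997) with the block but without CRD replicate 2. Sst (somatostatin) gave -0.74 ± 0.28 (adjusted p = 0.102, and 0.0471 without HFD replicate 5) and Ppy (pancreatic polypeptide) -0.39 ± 0.22 (adjusted p = 0.309). Without the block Sst was at -0.48 and Ppy at -0.65 (adjusted p = 0.0358), and without CRD replicate 2 Ppy was at -0.64. Pdyn (prodynorphin), a delta cell marker, rose by 1.17 ± 0.24, in a list with a median of -0.36. Of 7 delta cell markers 1 rose and 1 fell, with 1 and 2 without the block. The lower count was 0 without HFD replicate 2 and 2 without HFD replicate 5. Of 7 alpha cell markers 1 rose and 2 fell (28.6%, against 5.97% of all genes). The lower count there was 0 without the block or without CRD replicate 2. Of 5 PP cell markers 0 rose and 1 fell (20.0%), a call lost without HFD replicate 2. Of 16 endothelial and 7 duct markers 0 passed in either direction, although 3 duct markers were higher without the block or without HFD replicate 1. In the macrophage list 1 of 14 rose and 1 fell. The member that fell was C1qa, a complement component of macrophages, at -1.23 ± 0.24, which did not pass without the block (-0.75, adjusted p = 0.0523), and the member that rose was lost without CRD replicate 2. Tubb3, a neuronal tubulin in the list of Schwann cells and neurons, rose by 1.05 ± 0.19. In that list 2 of 7 rose and 0 fell, and 1 rose without CRD replicate 2.

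The change could be set beside the same diet change at 39 weeks, measured in other mice. The difference between the CRD effects of the ages passed the threshold for 0 genes with limma, with or without the block, while 327 genes (1.79%) had an unadjusted p under 0.05. Without HFD replicate 1 of 18 weeks 17 genes passed, and without CRD replicate 2 of 18 weeks 1 gene passed. A p that misses the threshold does not show that the effects were alike. The genes called at both ages with the same sign numbered 1747, of 2355 called at 18 weeks and 2799 at 39 weeks (15.3% of those tested, 7.49% higher and 7.79% lower). Mki67 rose by 3.34 at 18 weeks and 3.75 at 39 weeks, Serpina7 by 4.79 and 4.83, and Derl3 by 2.89 and 2.85. Slc2a2 changed by -3.65 at 18 weeks and -3.14 at 39 weeks, and Dbp by -2.97 and -2.94. Nr4a1 changed by -2.19 at 18 weeks and -0.21 (adjusted p = 0.759) at 39 weeks, a difference of -1.98 ± 0.55 that did not pass (adjusted p = 1). The same held for G6pc2, with -1.56 at 18 weeks and -0.14 (adjusted p = 0.798) at 39 weeks, a difference of -1.41 ± 0.44. Cdk1 rose by 4.08 at 18 weeks and 5.37 at 39 weeks, a difference of -1.29 ± 0.52, and Pdyn by 1.17 and 2.36, a difference of -1.19 ± 0.34. Acinar markers had a median of 2.06 at 18 weeks and -1.97 at 39 weeks, where 1 rose and 6 fell.

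**Figure D5:**
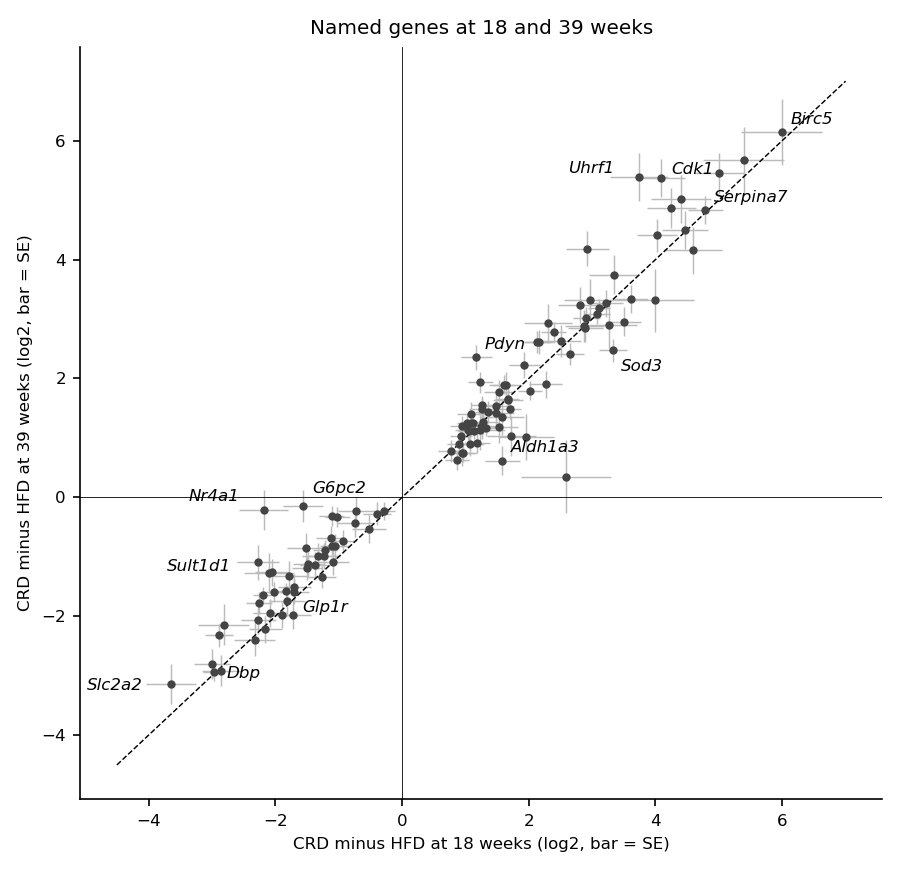
CRD minus HFD (log2) at 18 weeks (horizontal axis) against the same difference at 39 weeks (vertical axis) for the genes named here, with SE bars on both axes and a dashed line of equal change. Most points lie near the line, and Nr4a1 and G6pc2 lie near 0 at 39 weeks.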

How the data were processed

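RNA of hand-picked islets was hybridised to 20 arrays, 5 in each of 4 groups, and 5 mice per group are stated by the series. The deposited table gives 1 linear intensity per probe and array, and the submitters' processing notes name Agilent Feature Extraction 11. Its sorted values were identical on all arrays, so the deposited intensity values are quantile normalized, and the sources used here do not give their background treatment. Of 59448 probes, 30010 had 1 gene symbol in the platform annotation and 29438 had none. The brightest probe stood for each of 26159 genes, of which 3324 had over 1 probe. The 30% of genes with the lowest mean were left out (below a log2 of 4.83), which left 18311.

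Log2 intensities were fitted with limma 3.58.1 in R 4.3.3 over all 20 arrays and 4 groups, with the array set as a block, moderated with eBayes and adjusted by the Benjamini-Hochberg method at 0.05. The array sets were found from the chemosensory genes and are not in the labels. Set A also held 3 HFD and 4 CRD arrays of 39 weeks, set B 1 HFD array of 39 weeks, and set C the remaining 2. The fit was tested on simulated data. Genes named are the 15 highest and 15 lowest fold changes that passed with and without the block, without overlap and with a group mean of at least 8, up to 4 members per direction of 61 gene lists, and Mki67, Slc2a2, Txnip, Gcg, Sst, Ppy, Pdx1, Mafa and Mcm3. Not every gene that this rule allows is named. Members of the lists, the array sets and the genes were chosen with earlier results of these data known. Leaving out each array, other blocks, filters, offsets and probe rules were tried, and a fit of the set A arrays alone was chosen after seeing the data. The number of arrays limits the precision. The labelling protocol names oligo-dT or its mix with random primers, without saying which arrays got each.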

Additional observations from a re-analysis of the deposited data

Results flagged for a closer look

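In 30 of 238 pairs of a named gene and a diet group of 18 weeks (12.6%), the highest or lowest array stood apart from the other 4, with a gap to its nearest neighbour of over 0.71 of the range of the 5 arrays. Chance gives about 1 in 20 such groups. CRD replicate 2, the lone CRD array of 18 weeks in set A, was the array in 24 of the 30.

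On CRD replicate 2, 9 secretory pathway genes stood low within their group, although above the HFD arrays, whereas Fkbp11 did not stand low there. Its log2 intensities were 12.40 for Sdf2l1, 10.34 for Ppib, 12.01 for Edem2, 10.98 for Derl1, 10.37 for Alg5, 11.94 for Mogs, 13.77 for Sec11c, 10.82 for Kdelr3 and 11.78 for Ergic1. The mitochondrial genes Ndufa4 (9.26) and Atp5g1 (12.30), with Nme1 (13.48), Txn1 (11.25), Ttr (13.98) and Txnip (13.48), were also at their lowest CRD value there. Of these genes only Txnip lay below an HFD array. Of the genes that fell after CRD, 8 stood apart at their lowest on the same array, with Dbp at 7.02, Slc16a9 at 5.89, Zdhhc2 at 8.66, Ccnd2 at 12.19, Mlxipl at 9.36, Atp2a2 at 12.46, Kcnj11 at 6.74 and Rab37 at 8.62. Mcm3 was the gene that stood high there, at 15.35. The part of the array set in these values was not tested gene by gene.

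The other 6 values were spread over 4 arrays. Cox6a2 was lowest on CRD replicate 3 (7.13), and Gstm1 was highest on CRD replicate 5 (7.31). Cdc6 (3.05) and Gins2 (2.78) were lowest on HFD replicate 2, and Ttyh1 (4.47) and Anln (2.03) on HFD replicate 4. Cdc6, Gins2, Ttyh1 and Anln lay there at or below the level under which genes were left out by their mean.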

How the results depend on the processing

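Beside 2355 genes called, of which 1262 were higher and 1093 lower, the fit without the array set block called 4565 (3120 higher), array weights 3619 (1960 lower), and a fit of the 10 arrays of 18 weeks alone 935 (576 and 359). Leaving out each array in turn gave 935 to 3002 genes, 575 to 1757 higher and 360 to 1406 lower. The set A arrays alone, an alternative chosen after seeing the data in which CRD has 1 array of 18 weeks whose spread is taken from the other groups, called 180 (117 and 63). Members of the lists called numbered 329, with 557 without the block, 149 from the 10 arrays, 53 from set A, and 159 to 432 without each array. Of 214 genes that the naming rule allows 196 passed, 118 from the 10 arrays, 52 from set A and 117 to 200 without each array. The difference between the ages was called for 0 genes, and for 0 to 17 without each array.

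Replicate numbers were tried as pairs. With the replicate block beside the array set, 1194 genes were called (680 higher, 514 lower), with 196 list members. Same-numbered arrays correlated at -0.24, 0.71, 0.12, 0.19 and -0.42 after the set was removed, so the numbers do not pair the mice.

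Higher genes made up 53.59% of the calls, 68.35% without the block, 65% in set A and 46.78% to 61.5% without each array. Mcm3 turned to 0.28 in set A alone, without a call, and the cause was not tested. Of 114 called genes named here, 112 passed without the block, 105 in the 10 arrays and 52 in set A. A random block, the offset, no filter, a stricter filter, averaged probes and a robust fit with trend each kept the count of all calls within 1.5 times. The array set lies almost along the diet, dim genes rest on values near the floor, and Ins2 was at the ceiling of the table.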

Other observations

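Further gene lists are given here. Their main counts are to be read against the background of 6.89% higher and 5.97% lower. Counts without the block are to be read against 17.0% higher and 7.89% lower. Without CRD replicate 2 the background was smaller, 575 genes higher and 360 lower among 18311 tested. In the tricarboxylic acid cycle and anaplerosis, 4 of 32 members rose and 2 fell, with 12 and 1 without the block. Without CRD replicate 2 the higher count there was 0, and without HFD replicate 2 the counts were 1 and 0. The higher count was 2 without CRD replicate 1 or 3. Cholesterol synthesis and uptake had 4 of 21 higher and 3 lower, 9 and 1 without the block, and 0 and 1 without CRD replicate 2. The higher count was 2 without HFD replicate 2, 4 or 5 or CRD replicate 3 or 5, and the lower count 1 without HFD replicate 2. Mitochondrial chaperones and import had 3 of 22 higher and 0 lower, 10 without the block, 0 without CRD replicate 2, and 1 without HFD replicate 4 or CRD replicate 3 or 5. Insulin and growth factor signalling had 1 of 28 higher and 5 lower, 4 and 3 without the block, and 0 and 1 without CRD replicate 2.

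Zinc transporters and metallothioneins had 2 of 19 higher and 2 lower, with 7 and 1 without the block and 0 and 0 without CRD replicate 2. Of 26 lysosomal genes 0 rose and 2 fell, with 5 and 1 without the block, 4 lower without HFD replicate 5 and 0 lower without CRD replicate 2. Interferon response and antigen presentation had 1 of 15 higher and 0 lower, with 4 and 1 without the block, 2 higher without HFD replicate 1 and 0 higher without CRD replicate 2. Its lower count was 1 without HFD replicate 5. Genes of the prolactin receptor and serotonin axis, which rises in islets during pregnancy, had 0 of 13 higher and 2 lower, both lost without the block, without HFD replicate 2 or without CRD replicate 2.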
